A study of Homo sapiens with 12 samples.

Results

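The aminoacyl-tRNA synthetases were followed as a family of 38 genes among the 22328 gene symbols listed for this RNA-seq series. The 38 genes were picked by symbol. They are 20 genes for cytosolic synthetases, 16 for mitochondrial synthetases, whose symbols end in 2, and AIMP1 and AIMP2, scaffold proteins of the cytosolic multi-synthetase complex. All 38 passed the filter on low values.

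The cells were MCF10A, a non-tumorigenic human mammary epithelial line, at fewer than 20 passages, in a medium with horse serum, insulin, EGF, hydrocortisone and cholera toxin. The 12 libraries were 4 of WT cells and 4 each of the p53 KO clones KO313 and KO414. Each clone grew from a single cell after CRISPR-Cas9 editing with its own guide pair, sorted by an EGFP marker, whereas WT was the parental line. Loss of p53 and the cloning of edited cells can therefore not be told apart, and the 8 p53 KO libraries are repeats of 2 clones. The p-values measure the spread between these libraries.

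Each synthetase joins 1 kind of amino acid to its transfer RNAs, and the charged tRNA then brings that amino acid to the ribosome. The cytosol and the mitochondrion hold separate sets of these enzymes, nearly all of them encoded by separate nuclear genes. GARS and KARS encode the glycine and lysine enzymes of both compartments. In the cytosol a group of synthetases sits in a large complex on AIMP scaffolds, and the others act free of it. When amino acids run short, uncharged tRNAs activate the kinase GCN2, and the transcription factor ATF4 is made. ATF4 raises transcription of many cytosolic synthetase genes through a short DNA element, the C/EBP-ATF response element.

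The promoters of the family were searched for that element, written TGATGNAA on either strand, to set its position beside the expression values. Sequences came from RefSeq (GRCh38.p14), which gave a window of 250 bases before to 50 after a gene's start for 32 of the 38 genes. DARS, LARS, VARS, YARS, AARS2 and VARS2 had no window and were not searched. The letters were found in 7 of 16 cytosolic genes (43.8%) and in 1 of 14 mitochondrial genes (7.14%). Among all 27305 genes with a window they were found in 4.46%. The stretches below are shown because they hold the match, in capitals, with up to 30 bases on each side and no base beyond position 25 of the transcript. TTGCATCA and TTTCATCA are the element read on the other strand.
AARS, chr16:70289656-70289723, minus strand: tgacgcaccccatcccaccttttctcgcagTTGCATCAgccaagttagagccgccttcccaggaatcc
CARS, chr11:3057399-3057455, minus strand: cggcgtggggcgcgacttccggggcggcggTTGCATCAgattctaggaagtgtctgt
GARS, chr7:30594815-30594882, plus strand: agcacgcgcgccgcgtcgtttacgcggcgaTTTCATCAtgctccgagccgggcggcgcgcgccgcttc
IARS, chr9:92293673-92293740, minus strand: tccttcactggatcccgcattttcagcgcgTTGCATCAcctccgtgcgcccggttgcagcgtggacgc
MARS, chr12:57488034-57488092, plus strand: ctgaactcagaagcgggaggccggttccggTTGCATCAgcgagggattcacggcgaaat
NARS, chr18:57621812-57621852, minus strand: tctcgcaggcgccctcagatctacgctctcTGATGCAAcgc
TARS, chr5:33440937-33440989, plus strand: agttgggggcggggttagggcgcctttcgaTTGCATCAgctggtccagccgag
YARS2, chr12:32756057-32756124, minus strand: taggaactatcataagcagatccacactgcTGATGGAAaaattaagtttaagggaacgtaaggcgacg
The match lay at -187 from the start in AARS and at -197 in YARS2. In CARS, GARS, IARS and MARS it began between -33 and -2, and in TARS and NARS at 3 and 15. For CARS, GARS and TARS only 1 of 2 RefSeq windows held it. The 2 cytosolic genes that moved most in p53 KO, FARSA and SARS, held no match, and the 150 bases before their starts are given for comparison.
FARSA, chr19:12933712-12933861, minus strand: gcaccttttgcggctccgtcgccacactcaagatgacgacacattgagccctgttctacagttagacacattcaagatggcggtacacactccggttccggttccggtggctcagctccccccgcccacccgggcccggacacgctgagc
SARS, chr1:109213743-109213892, plus strand: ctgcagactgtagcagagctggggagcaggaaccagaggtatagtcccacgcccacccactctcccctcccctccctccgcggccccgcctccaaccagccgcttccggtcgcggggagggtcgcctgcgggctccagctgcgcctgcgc
A p53 half-site was looked for as well, a search added after expression values had been seen. It was present in 1 of the 32 genes, PARS2, and in 8.06% of all genes. A match or its absence describes these letters in this window only.

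The libraries were checked before the family was read. As a check of the labels 3 genes were read, and by limma all 3 were lower in both clones at adjusted p under 0.05. Between the clones 1 of them differed, being lower in KO414 than in KO313 (log2 difference -1.72). The other 2, direct targets of p53, are given here. CDKN1A, which encodes the cell-cycle inhibitor p21, averaged 249 ± 19.6 RPKM in WT (SD, n = 4) and 30.7 ± 3.87 in p53 KO (SD, n = 8), and MDM2, which encodes a ubiquitin ligase, averaged 37.9 ± 6.19 and 10.3 ± 1.12. All 10 mammary basal epithelial markers were present in every library, and 9 of them differed between p53 KO and WT, 4 higher and 5 lower. Of 8 fibroblast markers COL1A2, COL3A1, LUM and THY1 were at or near 0, whereas FAP (4.07 RPKM in WT, 3.81 in p53 KO) and PDGFRA (3.34 and 3.37) passed the filter and were not called. COL1A1 averaged 0.380 and 0.395 RPKM and DCN 0.187 and 0.0368. Of 7 immune markers PTPRC and CD3E were at or near 0, ITGAM averaged 0.235 and 0.00426 RPKM, and CSF1R (0.595 and 0.492) was not called. CD68 (2.79 and 4.54 RPKM) and CD14 (0.938 and 1.65) were higher in p53 KO. All 5 endothelial markers were at or near 0. The part of these markers in the results was not tested. KO414 replicate 1 stood apart, with a mean correlation of 0.983 with the rest of its group against 0.988 to 0.994 for every other library, and it had the highest RPKM sum over all genes. Results are therefore also given without it. Fewer cells of a type and less RNA per cell cannot be told apart in such bulk samples.

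The values are RPKM, which divides reads by gene length and library size. The study states that its reads favored the 3' end of transcripts, and the gene lengths used are not known. Levels of different genes, their order and the size of their ratios are therefore approximate. Comparing the same gene between groups does not rest on its length. For 99.995% of 18702 rows above 0 they were whole multiples of a step, within 1e-06. The totals of these whole numbers differed by only 0.365% between libraries, so they had been brought to a common size and sequencing depth is unknown. The members rested on 230 (PARS2) to 24832 (EPRS) of these scaled units per library, and no member was near the lower limit of the table.

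By RPKM, cytosolic synthetase mRNAs were several times higher than mitochondrial ones in WT cells. The median of the WT means was 39.8 RPKM over the 20 cytosolic genes and 9.87 RPKM over the 16 mitochondrial genes. KARS, the lysine enzyme, was the highest at 79.0 ± 5.99 RPKM (SD, n = 4), and its WT libraries did not overlap those of NARS, next in order. KARS has 3 named pseudogenes, and TERF2IP overlaps 4.33% of its exonic bases on the opposite strand, so the KARS level is uncertain. NARS (asparagine, 67.2 RPKM), EPRS (a fused glutamate and proline enzyme, 64.3), TARS (threonine, 62.6), RARS (arginine, 62.0) and SARS (serine, 57.9) followed, each overlapping its neighbour. IARS (isoleucine) was at 52.4 RPKM and GARS (glycine) at 46.0, each clear of the gene above it. FARSA, one subunit of the phenylalanine enzyme, HARS (histidine), YARS (tyrosine) and LARS (leucine) lay between 44.3 and 38.8 RPKM, each overlapping its neighbour in that order. Even so, every FARSA library of WT was above every YARS and LARS library of WT. Neighbours also overlapped among DARS (aspartate), FARSB (the other phenylalanine subunit), MARS (methionine), QARS (glutamine) and WARS (tryptophan), between 33.7 and 30.7 RPKM. Within WT every FARSB library was above every WARS library. AARS (alanine, 24.2) and VARS (valine, 23.3) overlapped each other. CARS (cysteine) was lowest among the cytosolic genes at 12.2 ± 0.465 RPKM and overlapped none.

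One mitochondrial gene departed from its class. IARS2, the mitochondrial isoleucine enzyme, reached 64.8 ± 2.04 RPKM in WT and made up 30.6% of the summed RPKM of the 16 mitochondrial genes. CARS2 (21.2 RPKM), HARS2 (19.4) and EARS2 (glutamate, 14.3) came next, with no overlap between neighbours. LARS2, YARS2, TARS2 and RARS2 followed at 12.1, 11.9, 11.3 and 11.2 RPKM, in an order their spread did not resolve. NARS2 (8.56), WARS2 (7.91) and SARS2 (7.21) overlapped in turn, as did MARS2 (5.78), FARS2 (5.70) and AARS2 (5.26). VARS2 averaged 3.56 RPKM, and PARS2, the mitochondrial proline enzyme, was the lowest of the family at 1.81 ± 0.237 RPKM. The scaffolds AIMP1 and AIMP2 overlapped, at 27.0 and 25.1 RPKM.

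**Figure D1:**
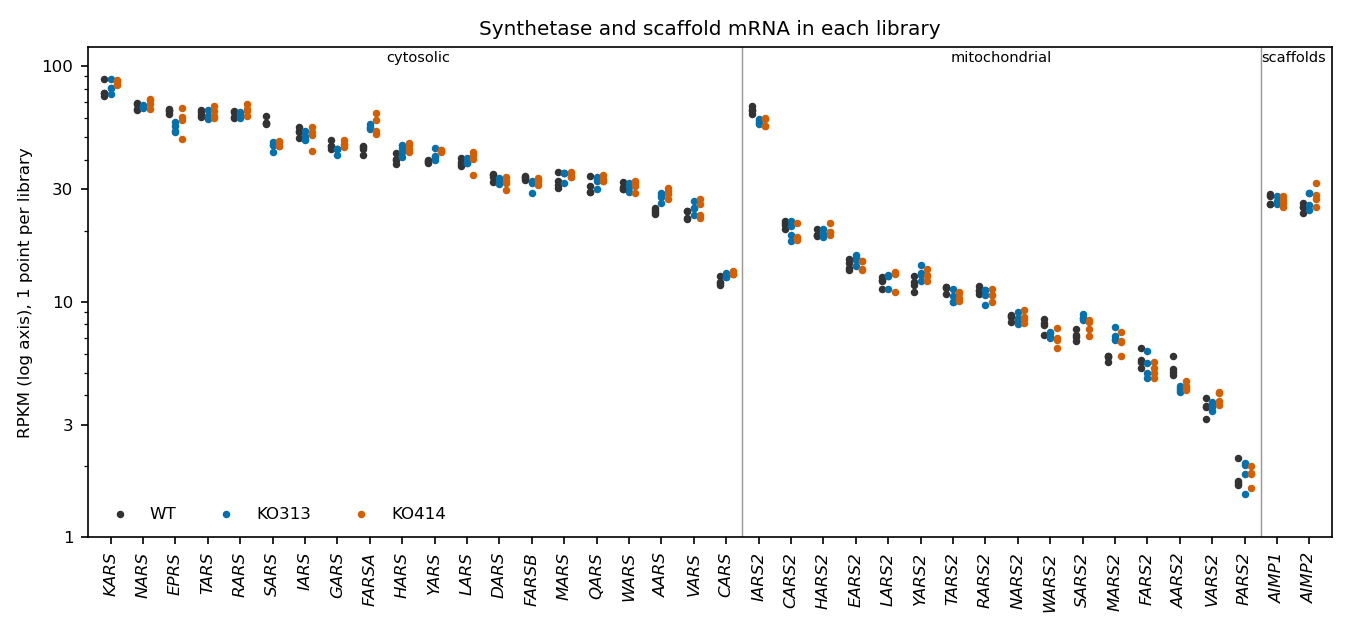
RPKM on a log axis for all 38 genes, ordered by WT mean within each class, with 1 point per library of WT, KO313 and KO414 (n = 4 each). KARS and IARS2 top the cytosolic and mitochondrial classes at 79.0 and 64.8 RPKM in WT, CARS and PARS2 are lowest at 12.2 and 1.81 RPKM, and no clone's mean differs from WT by as much as 2-fold for any gene.

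Spread between repeats was small. The median coefficient of variation of a cytosolic gene was 3.65% in WT, 3.93% in KO313 and 4.49% in KO414. For a mitochondrial gene it was 4.77%, 5.60% and 5.74%. The widest within a group was 13.1%, for PARS2 in WT.

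The study asked which transcripts depend on p53, and the first comparison set the 8 p53 KO libraries against the 4 WT libraries. Synthetase genes moved in both directions and by little. SARS and the mitochondrial AARS2 and IARS2 fell in p53 KO, while FARSA, AARS and MARS2 rose, all by less than 1.3-fold. By limma on log2(RPKM + 0.5), with Benjamini-Hochberg adjustment over 12215 genes, 10 of 38 members (26.3%) were called at adjusted p under 0.05, 6 higher and 4 lower. The share among all genes was 29.6% (15.6% higher and 14.0% lower). Without WT replicate 1, 2 or 4 the count was 6 members (15.8%), beside 20.7% to 23.8% of all genes, and without WT replicate 3 it was 13 (34.2%), beside 24.9%. No member reached a fold of 2, against 1.47% of all genes. The median log2 difference of the 38 members was 0.03, and that of all genes was 0.01. Libraries of p53 KO lay wholly outside the WT range for 6 members, namely 4 cytosolic and 2 mitochondrial, beside 19.0% of all genes. All log2 differences below are on the log2(RPKM + 0.5) scale with the standard error, and all adjusted p-values are from that limma fit.

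**Figure D2:**
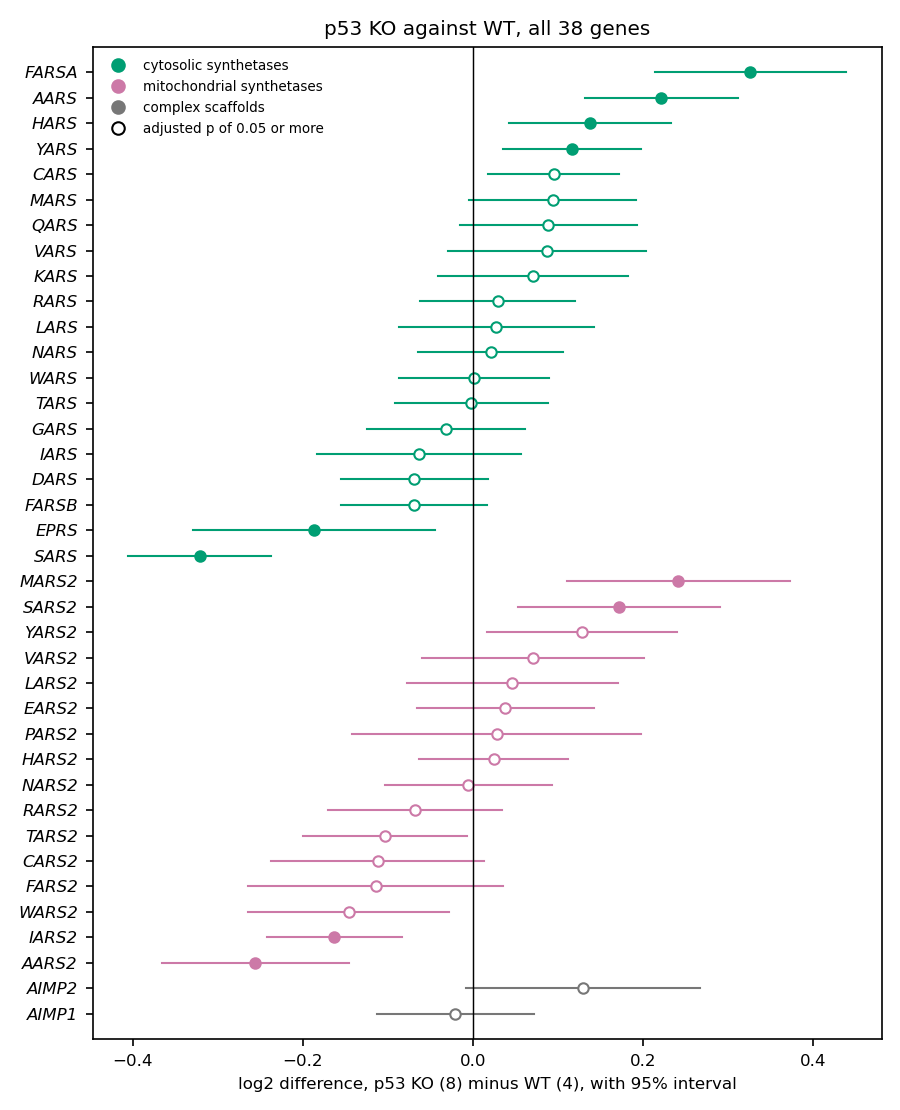
Log2 difference of p53 KO (n = 8) minus WT (n = 4) on the log2(RPKM + 0.5) scale, with 95% intervals, for 20 cytosolic genes (green), 16 mitochondrial genes (pink) and 2 scaffolds (grey). Filled points are the 10 genes with adjusted p under 0.05, and all differences lie between -0.32 (SARS) and 0.33 (FARSA).

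Of the 20 cytosolic genes 4 rose and 2 fell, with a median log2 difference of 0.03. SARS, which charges serine, changed with the smallest p. Its RPKM was 56.3, 57.0, 61.1 and 57.0 in WT, 42.9, 46.0, 47.5 and 46.1 in KO313 and 47.4, 48.1, 45.8 and 45.7 in KO414. Every p53 KO library lay below every WT library, and the mean dropped from 57.9 ± 2.17 to 46.2 ± 1.61 (SD, n = 4 and 8). The log2 difference was -0.32 ± 0.04 (adjusted p = 3.863e-05). No other annotated gene overlaps its exons (GENCODE v29).

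FARSA encodes the catalytic subunit of the cytosolic phenylalanine enzyme. It was at 44.5, 45.7, 45.4 and 41.7 RPKM in WT, 53.8, 54.6, 55.1 and 56.4 in KO313 and 62.9, 51.4, 52.96 and 59.0 in KO414. All 8 p53 KO libraries were above all WT libraries, the highest being KO414 replicate 1. The log2 difference was 0.33 ± 0.05 (adjusted p = 0.0004151), and it was 0.30 without that library. FARSA-AS1 overlaps 1.03% of its exonic bases on the opposite strand. FARSB, which encodes the partner subunit of the same enzyme, was at 33.4 ± 0.512 RPKM in WT and 31.9 ± 1.34 in p53 KO, a log2 difference of -0.07 ± 0.04 that did not pass (adjusted p = 0.2149).

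AARS, which charges alanine, was at 24.0, 25.00, 24.4 and 23.4 RPKM in WT, 26.2, 28.8, 28.3 and 27.8 in KO313 and 28.5, 30.4, 27.3 and 29.4 in KO414. The groups did not overlap, and the log2 difference was 0.22 ± 0.04 (adjusted p = 0.001407). A pseudogene, AARSP1, could share some of its reads. YARS, for tyrosine, showed a smaller difference in the same direction. It was at 39.1, 39.8, 39.4 and 38.7 RPKM in WT, 41.6, 44.6, 40.8 and 39.9 in KO313 and 43.7, 43.3, 43.1 and 43.9 in KO414, with a log2 difference of 0.12 ± 0.04 (adjusted p = 0.03332). KO313 replicate 4 came close to the highest WT library without crossing it. S100PBP overlaps 4.82% of its exonic bases on the opposite strand.

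HARS and EPRS were called although libraries of the groups overlapped. HARS, for histidine, was at 40.3, 38.4, 42.8 and 39.8 RPKM in WT, 41.0, 43.1, 45.9 and 44.6 in KO313 and 47.1, 43.0, 46.1 and 44.5 in KO414 (log2 difference 0.14 ± 0.04, adjusted p = 0.03185). WT replicate 3 reached into the KO313 range. EPRS, for glutamate and proline, was at 65.03, 65.6, 62.2 and 64.4 RPKM in WT, 55.7, 57.8, 52.8 and 52.3 in KO313 and 49.1, 66.1, 60.3 and 59.1 in KO414 (log2 difference -0.19 ± 0.07, adjusted p = 0.04852). KO313 lay below WT throughout, whereas KO414 ran from the lowest to the highest value of all 12 libraries. Of 20 alternative settings SARS, FARSA and AARS kept their calls in all 20, HARS in 12, and YARS and EPRS in 8 each. EPRS lost its call without any 1 of the WT or KO313 libraries or KO414 replicate 4, YARS without any 1 of the WT libraries, KO313 replicate 2 or KO414 replicate 2, 3 or 4, and HARS without WT replicate 1, 2 or 4 or replicate 3 or 4 of either clone. Over the 20 settings the limma adjusted p reached 0.1268 for EPRS, 0.09943 for YARS and 0.1115 for HARS.

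The 14 other cytosolic genes did not pass. CARS came nearest, at 11.8, 11.9, 12.8 and 12.1 RPKM in WT, 12.9, 12.8, 13.2 and 12.7 in KO313 and 13.1, 13.1, 13.1 and 13.4 in KO414 (log2 difference 0.09 ± 0.04, adjusted p = 0.06177). MARS was next, at 30.3, 32.4, 35.3 and 31.0 RPKM in WT, 31.8, 35.1, 35.1 and 34.9 in KO313 and 33.9, 33.7, 35.2 and 35.5 in KO414 (log2 difference 0.09 ± 0.05, adjusted p = 0.144), and its groups overlapped. MARS shares exonic bases on the opposite strand with DDIT3 and ARHGAP9, so its reads may include theirs. WT and p53 KO means were 30.8 and 32.7 RPKM for QARS, 23.3 and 24.8 for VARS, and 79.0 and 82.9 for KARS, and none of the 3 was called. They were 62.0 and 63.3 for RARS, 38.8 and 39.7 for LARS, 67.2 and 68.2 for NARS, 30.7 and 30.8 for WARS and 62.6 and 62.5 for TARS, 5 genes with log2 differences within 0.03 of 0. They were 46.0 and 45.1 for GARS, 52.4 and 50.2 for IARS and 33.7 and 32.1 for DARS, where the p53 KO mean was the lower one. For every member not called the 95% interval of the log2 difference stayed within 0.27 of 0, the widest bound being that of AIMP2.

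Of the 7 cytosolic genes with TGATGNAA in the window, AARS alone was called, beside 29.6% of all genes. Of 16 cytosolic genes with a window these 7 held the match. Among the rest EPRS, FARSA, HARS and SARS were called, beside the same 29.6% of all genes. The called genes YARS and AARS2 had no window and were not searched. The difference between genes with and without a match was not tested. The other 6 cytosolic genes with a match had log2 differences between -0.06 (IARS) and 0.09 (CARS). YARS2, the mitochondrial gene with a match, was at 11.9 RPKM in WT and 13.1 in p53 KO and did not pass (adjusted p = 0.0802).

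The cytosolic genes also divide by where their enzymes work. Of the 8 whose products belong to the multi-synthetase complex (EPRS, IARS, LARS, QARS, MARS, KARS, RARS and DARS, from textbook knowledge), EPRS alone was called, and it was lower. Of the 12 others 4 were higher and 1 lower. The share among all genes was 29.6%, and the difference between these small sets was not tested. The median log2 difference was 0.03 for the complex members and 0.05 for the others. The scaffolds were not called. AIMP1 was at 28.0, 25.8, 25.8 and 28.5 RPKM in WT, 25.8, 26.1, 28.0 and 26.8 in KO313 and 26.2, 27.0, 28.0 and 25.2 in KO414 (log2 difference -0.02 ± 0.04, adjusted p = 0.7611). AIMP2 was at 23.7, 25.3, 26.2 and 25.1 RPKM in WT, 28.8, 25.7, 28.8 and 24.4 in KO313 and 31.9, 25.3, 27.1 and 28.3 in KO414 (log2 difference 0.13 ± 0.06, adjusted p = 0.1497). Both overlapped between groups. AIMP2 shares 28.9% of its exonic bases with EIF2AK1 on the opposite strand, and AIMP1 11.6% with TBCK.

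Of the 16 mitochondrial genes 2 rose and 2 fell, with a median log2 difference of 0.01. AARS2, which charges alanine in mitochondria, fell. It was at 5.90, 5.05, 5.20 and 4.90 RPKM in WT, 4.24, 4.39, 4.13 and 4.30 in KO313 and 4.37, 4.29, 4.21 and 4.61 in KO414. The groups did not overlap, and the log2 difference was -0.26 ± 0.05 (adjusted p = 0.002084). AARS2 shares 5.47% of its exonic bases with TMEM151B on the opposite strand.

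IARS2, the mitochondrial isoleucine enzyme, fell too. It was at 64.9, 65.02, 62.2 and 67.2 RPKM in WT, 59.5, 58.5, 57.1 and 56.6 in KO313 and 55.5, 59.5, 60.3 and 55.7 in KO414. Every p53 KO library was below every WT library, with a log2 difference of -0.16 ± 0.04 (adjusted p = 0.00482). It has a named pseudogene, IARS2P1. MARS2, the mitochondrial methionine enzyme, rose. It was at 5.81, 5.90, 5.89 and 5.53 RPKM in WT, 7.81, 6.95, 7.17 and 6.85 in KO313 and 5.87, 6.74, 6.79 and 7.39 in KO414 (log2 difference 0.24 ± 0.06, adjusted p = 0.009072). KO414 replicate 1 alone lay within the WT range, and without it the difference was 0.27. SARS2, the mitochondrial serine enzyme, was at 7.24, 7.10, 7.68 and 6.83 RPKM in WT, 8.54, 8.54, 8.36 and 8.84 in KO313 and 8.32, 7.18, 7.69 and 8.15 in KO414 (log2 difference 0.17 ± 0.06, adjusted p = 0.03108). KO414 replicate 2 lay within the WT range, and the call held in 13 of 20 alternative settings. It was lost without WT replicate 1, 2 or 4 or KO313 replicate 2, 3 or 4 (limma adjusted p up to 0.1112). AARS2, IARS2 and MARS2 kept theirs in all 20. SARS2 shares 46.2% of its exonic bases with a readthrough gene on its own strand, so its level is uncertain.

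**Figure D3:**
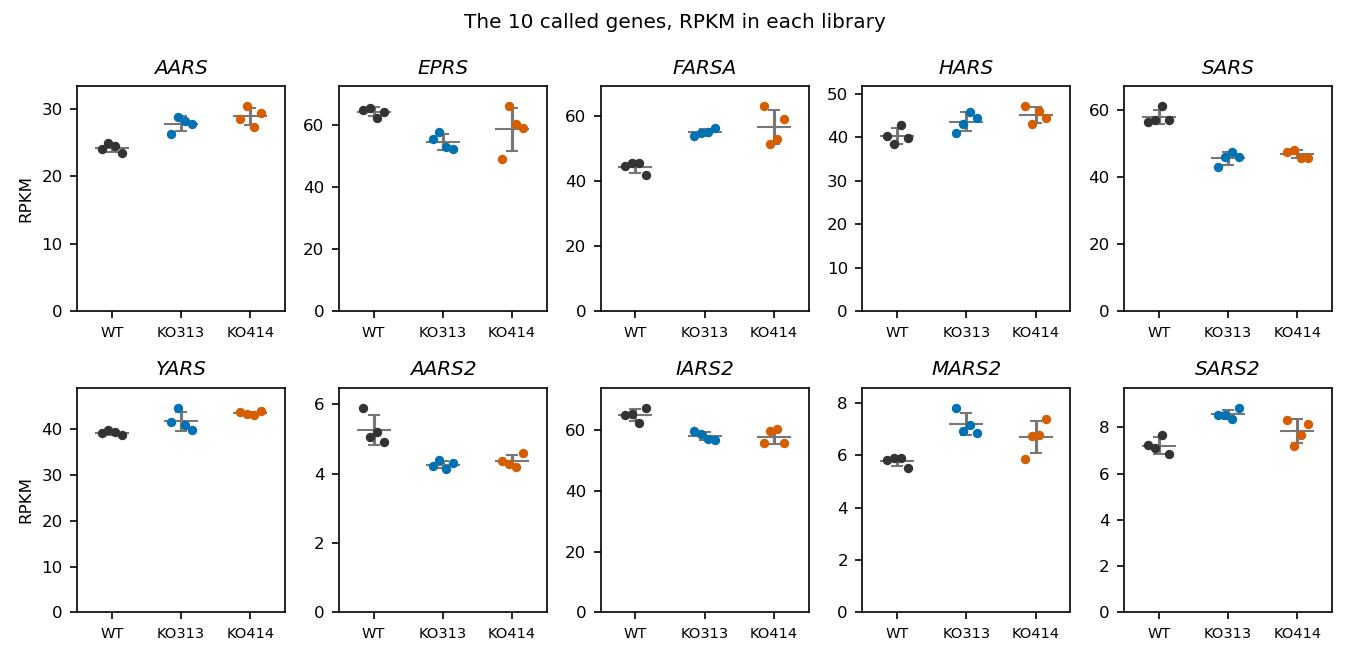
RPKM in each library of the 10 genes called in p53 KO against WT, with the mean and SD of each group of 4 (grey) and axes that start at 0. SARS, AARS2 and IARS2 are below WT and FARSA, AARS and YARS above WT in all 8 p53 KO libraries, and the KO414 points of EPRS range from 49.1 to 66.1 RPKM.

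WARS2 and YARS2 came next without passing. WARS2 (tryptophan) was at 8.41, 7.93, 7.21 and 8.10 RPKM in WT, 7.04, 7.42, 7.04 and 7.39 in KO313 and 6.35, 6.98, 7.73 and 6.88 in KO414 (log2 difference -0.15 ± 0.05, adjusted p = 0.06131). YARS2 (tyrosine) was at 11.01, 11.8, 12.8 and 12.1 RPKM in WT, 13.2, 12.2, 14.3 and 13.0 in KO313 and 13.8, 12.3, 12.8 and 13.0 in KO414 (log2 difference 0.13 ± 0.05, adjusted p = 0.0802). Both had overlapping groups. WT and p53 KO means were 21.2 and 19.6 RPKM for CARS2, 11.3 and 10.5 for TARS2, 11.2 and 10.7 for RARS2 and 5.70 and 5.23 for FARS2. They were 19.4 and 19.7 for HARS2, 14.3 and 14.7 for EARS2, 12.1 and 12.6 for LARS2, 8.56 and 8.53 for NARS2, 3.56 and 3.76 for VARS2 and 1.81 and 1.86 for PARS2. None of these 10 genes passed.

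The balance of cytosolic to mitochondrial mRNA for the same amino acid was read as an RPKM ratio within each library, which needs no scaling between libraries, and it is given as a description. The ratio did not overlap between p53 KO and WT in 4 of 13 pairs. Single genes did not overlap in 19.0% of cases, and the share among ratios of other genes was not computed. In 11 of 13 pairs the cytosolic RPKM was the higher one in all 12 libraries, the others being CARS/CARS2 and IARS/IARS2. The AARS/AARS2 ratio was 4.62 ± 0.381 (SD, n = 4) in WT and 6.57 ± 0.274 (SD, n = 8) in p53 KO, with no overlap. The serine pair went the other way, from 8.03 ± 0.235 in WT to 5.66 ± 0.515 in p53 KO, also with no overlap. CARS/CARS2 (0.574 and 0.667) and HARS/HARS2 (2.08 and 2.25) were higher in every p53 KO library, though the nearest libraries of the groups almost touched. HARS and HARS2 overlap each other on opposite strands. The 9 other pairs overlapped between groups. The 2 subunits of the cytosolic phenylalanine enzyme also differed in balance. FARSA/FARSB was 1.33 ± 0.0658 in WT and 1.76 ± 0.164 in p53 KO, and the lowest p53 KO library (1.54) was above the highest WT library (1.39).

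**Figure D4:**
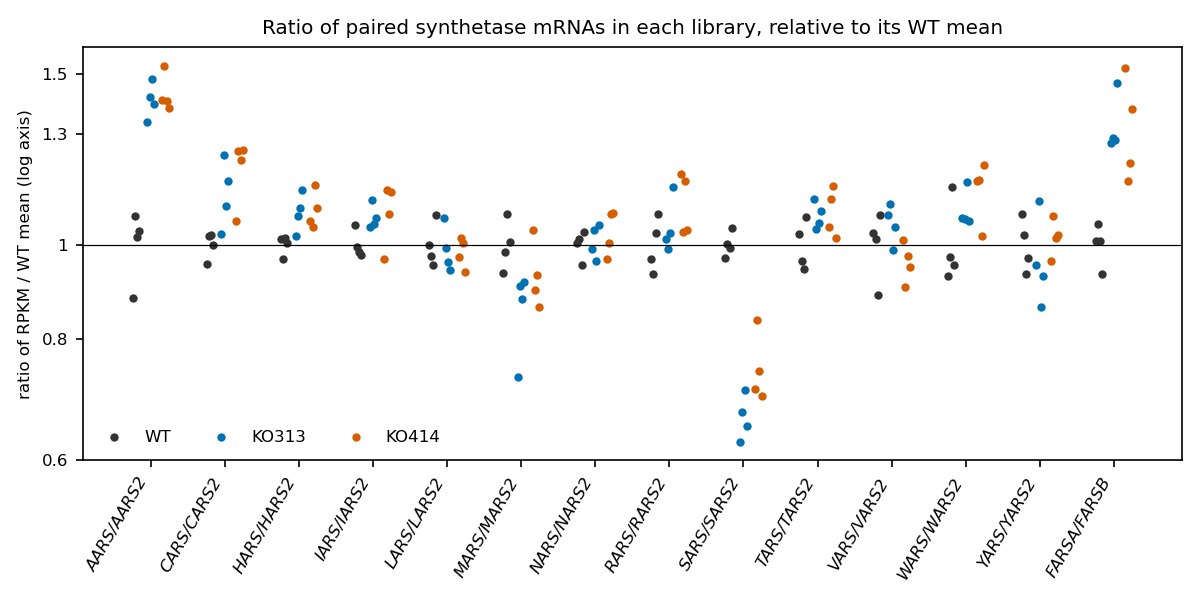
Ratio of the RPKM of 2 synthetase genes in each library, divided by its mean in WT, on a log axis, for 13 cytosolic and mitochondrial pairs and for the subunits FARSA and FARSB. AARS/AARS2 and FARSA/FARSB lie above and SARS/SARS2 below the WT points in all 8 p53 KO libraries.

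The summed RPKM of the cytosolic genes was 875 ± 10.0 in WT (SD, n = 4), 871 ± 17.1 in KO313 and 900 ± 18.2 in KO414, and libraries of the 3 groups overlapped. The mitochondrial sum was 212 ± 1.82, 206 ± 4.13 and 204 ± 1.54. KO414 lay below WT in every library, while KO313 reached up to 210.5 RPKM against a WT low of 210.3. IARS2 made up 6.97 of the 7.42 RPKM by which the mitochondrial sum was lower in p53 KO, and without it the sums were 147 RPKM in both.

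The clones were then taken one at a time, in a fit of the 3 groups that shares 1 estimate of the spread. Both comparisons use the same 4 WT libraries. In KO313 8 members were called, 4 higher (AARS, FARSA, MARS2 and SARS2) and 4 lower (SARS, EPRS, AARS2 and IARS2). This is 21.1% of members beside 21.5% of all genes (10.8% higher and 10.7% lower). In KO414 8 members were called, 5 higher (AARS, FARSA, HARS, YARS and MARS2) and 3 lower (SARS, AARS2 and IARS2), again 21.1%, beside 29.8% of all genes (15.2% higher and 14.6% lower). No member reached a fold of 2 in either clone, against 1.43% of all genes in KO313 and 1.92% in KO414. Members not called had 95% intervals within 0.27 of 0 on the log2 scale in KO313 and within 0.32 in KO414.

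The 6 genes called in both clones, which share their WT libraries, had the following values. For SARS the log2 difference from WT was -0.34 ± 0.05 in KO313 and -0.30 ± 0.05 in KO414 (adjusted p = 0.0001584 and 0.0002992). For FARSA it was 0.31 ± 0.06 and 0.34 ± 0.06 (adjusted p = 0.00325 and 0.001151). For AARS it was 0.19 ± 0.05 and 0.25 ± 0.05 (adjusted p = 0.01075 and 0.001653). Among mitochondrial genes, AARS2 differed by -0.27 ± 0.06 and -0.24 ± 0.06 (adjusted p = 0.005782 and 0.009112). IARS2 differed by -0.16 ± 0.04 and -0.17 ± 0.04 (adjusted p = 0.02014 and 0.01329). MARS2 differed by 0.29 ± 0.07 and 0.19 ± 0.07 (adjusted p = 0.00766 and 0.04612), and its KO414 call held in 8 of 20 alternative settings, being lost without any 1 of the WT libraries, KO313 replicate 2, 3 or 4 or KO414 replicate 2, 3 or 4. The KO313 call of IARS2 held in 16 of 20 and was lost without WT replicate 4 or KO313 replicate 3 or 4. EPRS and SARS2 were called in KO313 alone (-0.23 ± 0.07 and 0.23 ± 0.06) and HARS and YARS in KO414 alone (0.16 ± 0.05 and 0.15 ± 0.04). Of these, SARS2 kept its KO313 call in all 20 settings, whereas EPRS kept its call in 7, losing it without any 1 of the WT or KO313 libraries or KO414 replicate 3 or 4. HARS kept its KO414 call in 14 and lost it without WT replicate 1, 2 or 4 or KO414 replicate 3 or 4. YARS kept its call in 18, and WT replicate 4 was a library whose removal cost it. The counts cover all 20 settings, whereas the settings named are only those that leave out 1 library. Calls lost under the other settings are not named.

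The direct comparison of KO414 with KO313 tests whether such calls differ between the clones. No synthetase was called by limma, beside 3.36% of all genes, or 0.287% at a fold of 2. At an unadjusted p under 0.05 there were 2 members, GARS and SARS2. The share of all genes at that unadjusted p, or with no overlap between the clones, was not computed. Every 95% interval of KO414 minus KO313 stayed within 0.26 of 0 on the log2 scale, the widest being that of EPRS. SARS2 differed by -0.12 ± 0.06 (adjusted p = 0.4103), with every KO414 library below every KO313 library. GARS was at 44.3, 48.4, 45.7 and 45.8 RPKM in WT, 44.3, 44.1, 44.2 and 41.6 in KO313 and 46.2, 48.6, 46.4 and 45.0 in KO414, and differed by 0.10 ± 0.04 (adjusted p = 0.4244). Its KO414 libraries were all above KO313, while the WT libraries spanned both.

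VARS2 and RARS came next by p between the clones, followed by MARS2 and YARS, given above, and EARS2. VARS2 (valine) was at 3.57, 3.62, 3.89 and 3.16 RPKM in WT, 3.77, 3.44, 3.58 and 3.64 in KO313 and 4.10, 3.79, 3.65 and 4.14 in KO414 (KO414 minus KO313 0.11 ± 0.07, adjusted p = 0.6761). RARS (arginine) was at 60.3, 60.1, 63.4 and 64.2 RPKM in WT, 59.9, 61.3, 63.9 and 61.5 in KO313 and 65.5, 64.4, 68.8 and 61.2 in KO414 (0.07 ± 0.05, adjusted p = 0.6768). EARS2 (glutamate) was at 13.9, 14.6, 15.1 and 13.6 RPKM in WT, 14.1, 15.4, 15.8 and 15.04 in KO313 and 13.7, 14.8, 13.8 and 14.9 in KO414 (-0.08 ± 0.05, adjusted p = 0.7539). Libraries of the clones overlapped for VARS2, RARS and EARS2. VARS2 shares 22.0% of its exonic bases with GTF2H4 on the same strand.

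Leaving out KO414 replicate 1 gave more calls among all genes, and no member called in p53 KO against WT was lost. In p53 KO against WT 11 members were then called, the same 10 and CARS, beside 36.0% of all genes. In KO414 against WT it was 10 members (26.3%), beside 38.9% of all genes, and between the clones again none, beside 4.23%.

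A further 7 lists of genes that work beside the synthetases were read in the same fit, to be set beside the 29.6% of all genes called. Of 10 tested genes for other parts of tRNA charging, none rose and 2 fell. SEPSECS, which completes the making of selenocysteine on its tRNA, averaged 1.29 ± 0.0910 RPKM in WT and 0.878 ± 0.0891 in p53 KO (log2 difference -0.38 ± 0.07, adjusted p = 0.0007305), and all 8 p53 KO libraries were below WT. DTD2, which removes wrongly attached amino acids from tRNA, averaged 8.06 ± 1.00 and 6.46 ± 0.659 RPKM (-0.30 ± 0.08, adjusted p = 0.01627), a call lost without WT replicate 1 or 4 (up to 0.07056). PSTK, the kinase that acts before SEPSECS in the same pathway, averaged 2.07 and 1.78 RPKM and did not pass (adjusted p = 0.09102). GATC, a subunit of the mitochondrial amidotransferase that makes glutaminyl-tRNA, averaged 25.3 and 27.5 RPKM (adjusted p = 0.06025).

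Downstream, the list of genes of cytosolic elongation includes factors that carry charged tRNA to the ribosome. No gene of the list was called in p53 KO against WT (0 of 9, beside 29.6% of all genes), with 2 at an unadjusted p under 0.05. The share of all genes at that unadjusted p was not computed. EEF1A1 averaged 2192 RPKM in WT and 1980 in p53 KO (adjusted p = 0.07569), EEF1B2 376 and 336 (adjusted p = 0.08481), and EEF2K, the kinase of the factor EEF2, 3.34 and 3.80 (adjusted p = 0.1708). EEF1A2, a tissue-restricted relative of EEF1A1 that occurs mainly in muscle and brain, separated the clones. It was at 1.83, 1.78, 1.91 and 2.09 RPKM in WT, 2.06, 1.60, 1.67 and 1.82 in KO313 and 33.7, 24.3, 26.4 and 28.7 in KO414. Only KO414 stood out, with a difference of 3.65 ± 0.10 from KO313 (adjusted p = 3.519e-10) and 3.57 ± 0.10 from WT, whereas KO313 differed from WT by -0.07 ± 0.10 (adjusted p = 0.6428). Of 10 mitochondrial translation factors MTIF3, an initiation factor, fell from 12.4 to 10.9 RPKM (-0.19 ± 0.05, adjusted p = 0.01706), a call lost without WT replicate 2 or 4 (up to 0.06524). GFM1, GFM2 and MRRF, factors of elongation and ribosome recycling, did not pass (log2 differences -0.11, -0.09 and -0.07).

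Genes of tRNA processing and export were called in 7 of 14 cases, 3 higher and 4 lower. KIAA0391, the nuclease of mitochondrial RNase P, fell from 57.5 ± 2.04 to 50.1 ± 1.99 RPKM (-0.20 ± 0.04, adjusted p = 0.002464). TRMT10C, another subunit of that enzyme, fell from 22.7 to 19.9 (-0.19 ± 0.05, adjusted p = 0.01217), but not without WT replicate 4 (0.05642). SSB, the La protein that binds the ends of new tRNA precursors, fell from 87.6 to 77.4 (-0.18 ± 0.04, adjusted p = 0.007106). RPP30, a subunit of nuclear RNase P, rose from 7.89 to 9.04 (0.19 ± 0.04, adjusted p = 0.006869). All 4 genes had groups that did not overlap.

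The amino acid response list holds ATF4 and genes of amino acid supply and stress that it is known to act on, and 25 of its 27 genes were tested. It was called in 11 cases, 6 higher and 5 lower, with a median log2 difference of 0.13. Its largest changes were those of ATF3 and SESN2, which are also known to be induced by p53. ATF3, a stress transcription factor, fell from 6.22 ± 0.320 to 0.776 ± 0.147 RPKM (-2.41 ± 0.09, adjusted p = 2.359e-10). SESN2, a leucine sensor of the mTORC1 pathway, fell from 8.65 ± 0.909 to 2.39 ± 0.102 (-1.66 ± 0.06, adjusted p = 1.504e-10). PSPH, the last enzyme of serine synthesis, fell from 11.2 ± 0.767 to 8.28 ± 0.365 (-0.41 ± 0.05, adjusted p = 4.026e-05), while SLC1A5, a glutamine transporter, rose from 46.8 ± 1.26 to 60.3 ± 3.40 (0.36 ± 0.05, adjusted p = 6.671e-05). ATF4 itself, named here after its values were seen, averaged 99.4 and 94.0 RPKM and did not pass (adjusted p = 0.2835).

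Of 14 genes for eIF2, its kinases and its exchange factor, 2 rose. EIF2S3, a subunit of eIF2, went from 117 to 133 RPKM (0.19 ± 0.06, adjusted p = 0.01774) and EIF2B4, a subunit of the exchange factor, from 8.97 to 10.5 (0.22 ± 0.06, adjusted p = 0.01872). The call of EIF2S3 was lost without WT replicate 3 (limma adjusted p = 0.06805) and that of EIF2B4 without WT replicate 1 or 4 (up to 0.07448). The kinase gene EIF2AK1 (0.11, adjusted p = 0.06053) and PPP1R15A, which encodes a phosphatase subunit that reverses the kinases (0.12, adjusted p = 0.1843), did not pass.

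MYC is a known activator of synthetase genes, and 6 of 8 tested genes of its network were called, 4 higher and 2 lower. MYC rose from 63.8 ± 4.09 to 76.5 ± 6.06 RPKM (0.26 ± 0.06, adjusted p = 0.008002) and MLX, a partner in the wider network, from 30.9 to 34.9 (0.17 ± 0.04, adjusted p = 0.00641). MXI1, a repressor that competes for the MYC partner MAX, fell from 3.37 to 2.57 (-0.34 ± 0.06, adjusted p = 0.001472). MXD4, a repressor of the same kind, was at 3.42, 3.03, 3.08 and 2.92 RPKM in WT, 1.32, 0.958, 1.19 and 1.28 in KO313 and 0.744, 0.375, 0.508 and 0.427 in KO414. MXD4 fell in p53 KO by 1.47 on the log2 scale (adjusted p = 9.826e-05), and KO414 was below KO313 in every library (-0.74 ± 0.11, adjusted p = 0.001096). Repressors of this kind did not all fall. MXD1 rose from 4.48 to 5.49 RPKM (0.27 ± 0.07, adjusted p = 0.009532) and MNT from 1.77 to 2.35 (0.32 ± 0.09, adjusted p = 0.01347), both with overlapping groups, and MXD3 did not pass (adjusted p = 0.2755). MXD1, MXD3 and MNT were named after their values were seen. Whether the synthetase values depend on any of these genes was not tested.

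**Figure D5:**
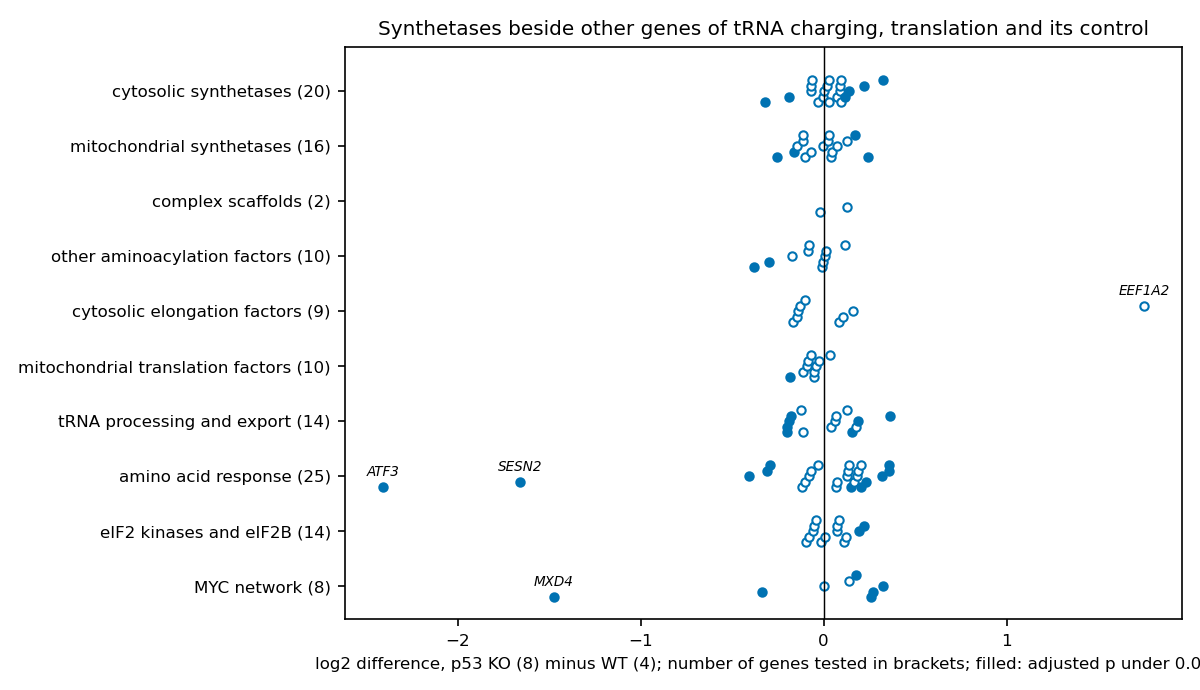
Log2 difference of p53 KO (n = 8) minus WT (n = 4) for each tested gene of the synthetase classes and of 7 lists of genes around them, with filled points at adjusted p under 0.05. The synthetases lie between -0.32 and 0.33. ATF3 (-2.41), SESN2 (-1.66), MXD4 (-1.47) and EEF1A2 (1.75, not called) lie furthest outside that range. Some other listed genes, such as PSPH, SEPSECS, MXI1 and SLC1A5, lie outside it by less.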

How the data were processed

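RNA-seq of 12 MCF10A libraries was used in groups taken from the sample labels. The authors deposited RPKM values per gene symbol in 1 table whose 12 columns each matched 1 sample. The submitters' processing notes name Trimmomatic and hg19. For the aligner, counter, annotation and strandedness the answer is not given in the sources used here. With strand unknown, genes that overlap another gene and genes with pseudogenes can share reads. The labels name an mRNA kit and the methods ribosomal RNA removal, which is unresolved. The study combined both clones and tested counts, which are not used here.

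Values were used as deposited, as log2(RPKM + 0.5), which understates changes of low genes. Of 22328 entries 4 repeats were left out, and 12215 genes with at least 0.5 RPKM in at least 4 libraries were tested with limma 3.58.1 (intensity trend, two-sided, Benjamini-Hochberg) in R 4.3.3. Figures were drawn with matplotlib 3.10.9 and tables made with pandas 2.3.3 under Python 3.11.15. The fit was tested on simulated data. Some results are not reported here. Named genes were all members, with values per library for those with the smallest p (8 cytosolic, 6 mitochondrial, both scaffolds, and 4 more between clones), and 4 genes of each further list by smallest p. Members and lists were chosen with earlier results of these data known. Overlaps and pseudogenes came from GENCODE v29. Alternatives were other pseudocounts, filters and scalings, no trend, a replicate block and leaving out each library.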

Additional observations from a re-analysis of the deposited data

Results flagged for a closer look

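In groups of 4 libraries, 1 library stood far from the other 3 in 9 of 114 groups of member values (7.89%), where chance gives about 5%. In WT replicate 3 SARS was at 61.1 RPKM (others 56.3 to 57.0), HARS2 at 20.3 (19.0 to 19.1) and PARS2 at 2.17 (1.67 to 1.73). In KO313 replicate 4 FARSB was at 28.97 RPKM (31.8 to 32.4) and GARS at 41.6 (44.1 to 44.3). In KO313 replicate 1 MARS was at 31.8 RPKM (34.9 to 35.1) and LARS2 at 11.3 (12.8 to 12.9). In KO414 replicate 1 LARS2 was at 11.03 RPKM (13.0 to 13.4) and CARS2 at 21.6 (18.3 to 18.7).

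The effects of the clones against WT differed, by the direct limma test of KO414 against KO313, for none of the family and for 2 of the other genes named. EEF1A2 was higher in KO414 by a log2 difference of 3.65 (adjusted p = 3.519e-10, higher in 4 of 4 libraries). MXD4 differed by -0.74 (adjusted p = 0.001096, lower in 4 of 4 libraries).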

How the results depend on the processing

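Over 20 alternatives no call of a named gene changed direction. SARS, FARSA, AARS, AARS2, IARS2 and MARS2 were called in p53 KO against WT in all 20, and EPRS and YARS in 8, HARS in 12 and SARS2 in 13. Leaving out 1 library gave 6 to 13 members called in p53 KO against WT, with 6 without WT replicate 1, 2 or 4 and 13 without WT replicate 3. Without WT replicate 3 that is 34.2% of members beside 24.9% of all genes, and without WT replicate 1, 2 or 4 it is 15.8% beside 22.0%, 23.8% and 20.7%, so which share was the larger depended on the WT library left out. It gave 5 to 10 in KO414 against WT (5 without WT replicate 4), 6 to 8 in KO313 against WT and 0 throughout between the clones. Genes called between the clones numbered 411, 701 with no filter, 247 with at least 1 RPKM in at least 8 libraries, and 270 to 515 without 1 library (270 and 273 without KO313 replicate 2 or 4). In p53 KO against WT, scaling to equal medians cost the calls of HARS and YARS, and quantile normalization those of EPRS and YARS. Fitting with no intensity trend also cost those of EPRS and YARS, and using no filter that of EPRS. Replicate numbers paired the libraries in part. Of 12 same-numbered pairs 6 had deviations correlated above 0.1 (-0.19 to 0.51), and 6 matched their own number best. Those included WT with KO313 for replicates 1, 2 and 3. The main fit does not use this pairing. With a replicate block 8 members were called in p53 KO against WT, without YARS and SARS2. Depth is unknown, which limits what can be said of counting error.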
